A study of Mus musculus with 12 samples.

Results

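Regulatory T (Treg) cells taken from the injured spinal cord of mice were compared with Treg cells taken from the spleen, gene by gene, in bulk RNA sequencing. The comparison used 6 of the 12 libraries of the series, 3 from spinal cord and 3 from spleen, and all 1284 genes of the table that holds them. Both groups were collected 14 days after spinal cord injury, so the spleen libraries also came from injured animals and no uninjured tissue stands beside them. Strain, sex, age, the type of injury, the pooling of animals and the gate by which the cells were sorted are not given in the sources used here. No source says whether each library is from a different animal, so the replicate spread behind each p-value may be no more than technical. The other 6 libraries, of microglia cultured with Treg cells and of control microglia, stand in a separately normalised table and were not used.

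Treg cells are CD4 T cells that hold immune responses in check through inhibitory receptors, suppressive cytokines and consumption of interleukin 2. Most circulate through the spleen and lymph nodes, and some settle in tissue, where they take on programmes of activation and repair. After an injury of the central nervous system they enter the damaged tissue together with other leukocytes. The question put to these libraries was how the cells in the lesion differ from those in the spleen.

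Levels are in FPKM, fragments per length of transcript and per total of fragments mapped, and the depth of the libraries is unknown. Its genes had been preselected for a difference: the smallest absolute log2 fold change in the authors' deposited table is 1.0007 and its largest Q value 0.0498. How many genes changed, and which way, is thus no independent evidence, and a gene that has no row, such as Foxp3, Il2ra, Cd4 or Cd3e, is not analysed here. Genes with a mean of at least 1 FPKM over the 6 libraries were tested, which kept 1072 of the 1284. Of the 212 genes below that mean, 152 had the higher mean in spinal cord and 60 in spleen. Just inside the limit lay Pde1a (1.51, 3.16 and 1.33 FPKM in spinal cord, 0 in the 3 spleen libraries) and just outside it lay Pigr (0, 0.04 and 0.05 FPKM in spinal cord, 3.38, 1.45 and 1.05 FPKM in spleen). The libraries of a group correlated across genes with Pearson's r of 0.965 to 0.975, and libraries of different groups with 0.723 to 0.747. The FPKM of the table summed to 111243, 134887 and 129182 in spinal cord libraries 1 to 3, against 65362, 64893 and 65262 in spleen libraries 1 to 3. Every value was tested on the log2(FPKM + 1) scale with limma, and a gene was called at a Benjamini-Hochberg adjusted p under 0.05.

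Of the 1072 genes tested, 654 (61.0%) were called higher in spinal cord and 414 (38.6%) lower, and 4 were not called, so 99.6% passed the test one way or the other. The 3 spinal cord values and the 3 spleen values of a gene did not overlap in 1046 genes (97.6%). The log2 fold change reached 2 or more in 135 genes (12.6%) and -2 or less in 19 genes (1.77%) with the values as deposited. The side with more large differences depended on the scaling: with equal totals 47 genes (4.38%) reached 2 or more and 309 (28.8%) reached -2 or less, and with quantile normalisation 76 (7.09%) and 82 (7.65%) did. The larger sums of the spinal cord libraries bear on every count of higher genes. When every library was given an equal total, the log2 fold changes shifted by -0.85 at the median, 266 genes stayed higher (24.8%) and 414 lower (38.6%), and 56 of the 654 went below 0. Under quantile normalisation the median shift was -0.39, 492 genes stayed higher (45.9%) and 414 lower (38.6%), and 12 of the 654 went below 0. The 414 lower genes were the same genes in all 3 cases. Both scalings rest on genes that were selected for a change. The background for a count of higher genes is thus 61.0% as deposited and 24.8% with equal totals, and for a count of lower genes 38.6% in both. For each gene group below, the count that stayed called with equal totals is given beside the count with the values as deposited.

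**Figure D1:**
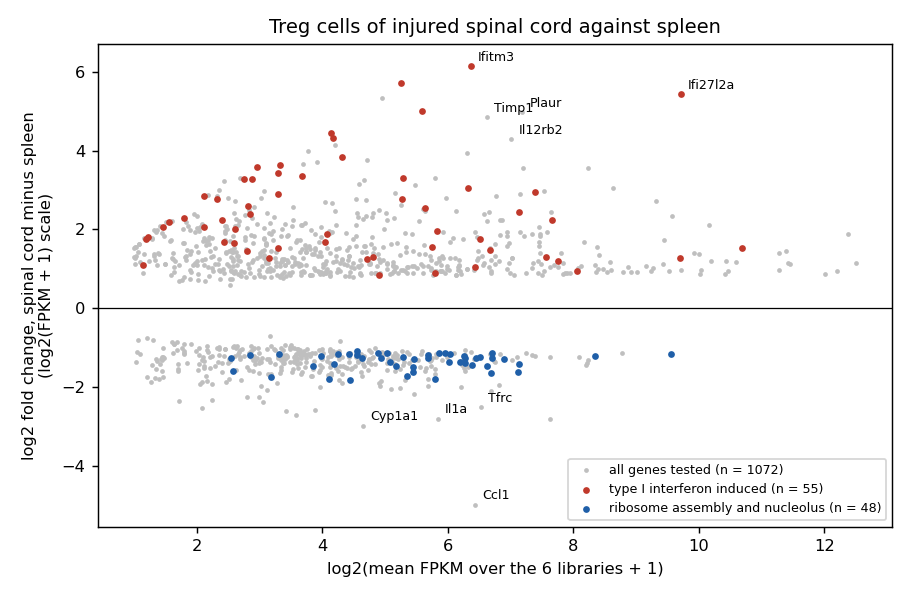
Each point is 1 of the 1072 genes tested, with its mean level over the 6 libraries as log2(FPKM + 1) on the x axis and the log2 fold change of spinal cord minus spleen on the y axis. The 55 genes tested from the type I interferon list (red) all lie above 0 and reach 6.16 at Ifitm3, and the 48 tested genes of the ribosome assembly list (blue) lie between -1.08 and -1.82.

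Genes listed as induced by type I interferon, the family of antiviral cytokines read through the receptor IFNAR, had the highest median difference of the lists tested, cell markers aside. This held with the values as deposited and with equal totals. With quantile normalisation the median was 1.61, below the 1.68 of the resting T cell list. Of 103 genes on this list, which was chosen with earlier results of these data known, 61 had a row and 55 were tested. Which interferon the cells had met, if any, was not tested. All 55 were higher in spinal cord with the values as deposited (61.0% over all genes). With equal totals 42 of the 55 stayed called (24.8% over all genes), and Ms4a6b and Sp140 lay just below 0. Their median log2 fold change was 2.20, against 0.95 over all genes tested, and 1.61 with equal totals, against 0.09 over all genes. Isg15 (chromosome 4, 156199424 to 156200818, GRCm38.p6), a ubiquitin-like protein that is attached to other proteins, had 33.9, 28.9 and 34.6 FPKM in spinal cord, against 2.11, 0.07 and 0.07 FPKM in spleen. Xaf1 (chromosome 11, 72301461 to 72313733), which promotes apoptosis, had 38.7, 22.2 and 39.4 FPKM in spinal cord, against 0.55, 0.52 and 0.98 FPKM in spleen. Both genes were low in spleen and well above that in each spinal cord library, by 4.45 (SE 0.40) for Isg15 and 4.32 (SE 0.31) for Xaf1 on the log2 scale.

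The list held genes of each step of the response. Among sensors of foreign RNA and DNA, Dhx58, a regulator of RNA helicase signalling, had 12.1, 7.22 and 17.7 FPKM in spinal cord, against 1.08, 0.04 and 0 FPKM in spleen, and Zbp1, a sensor of Z-form nucleic acid, averaged 236 ± 33.7 FPKM in spinal cord and 44.1 ± 14.3 FPKM in spleen (SD, n = 3 each). Among the factors that carry the signal, Stat2 was 4.75-fold and Irf9 2.96-fold higher in spinal cord, and both belong to the transcription factor complex ISGF3. Irf7, the factor that amplifies interferon production, had 42.3, 31.4 and 33.8 FPKM in spinal cord, against 3.62, 2.45 and 0.03 FPKM in spleen. Among effectors, Oas3, which makes the signal that activates RNase L, had 27.8, 8.22 and 16.8 FPKM in spinal cord, against 0.11, 1.12 and 0.06 FPKM in spleen. Ifit3, which binds viral RNA complexes, had 18.5, 14.3 and 18.1 FPKM in spinal cord, against 0, 1.39 and 0.9 FPKM in spleen. Rtp4 had 17.5, 10.8 and 11.7 FPKM in spinal cord, against 0.04, 0 and 0.57 FPKM in spleen. In all 4 genes the lowest spinal cord library lay above the highest spleen library, and groups did not overlap in 97.6% of all genes. Reads of Irf7 and of the opposite-strand gene Phrf1 could be mixed, since 45 exonic bases overlap and no source used here says whether the libraries kept the strand. Ifitm3, Trim30d and Phf11b belong to families of near-identical copies among which the counting may have divided reads.

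The interferon-stimulated response element, the sequence that ISGF3 binds, was searched for as GAAANNGAAA on both strands in RefSeq promoter windows of GRCm38.p6, each running from 250 bases before a gene's start to 50 bases after it. It was present in 21 of the 41 genes of the type I list that had a window (51.2%) and in 11 of the 18 of the list of interferon gamma and antigen presentation genes (61.1%), which is described further on. The share was 10.2% over the 531 genes called higher, 2.7% over the 336 called lower and 4.0% over all 27025 genes of the RefSeq table. The windows of 4 genes with large differences are shown, in lower case with the matches in capitals and each from 5′ to 3′ on the gene's own strand. Ifitm3 lies at chr7:141010695-141010994 (minus strand) with matches that begin 3 and 20 bases after the start, Isg15 at chr4:156200769-156201068 (minus strand) with 3 overlapping matches 78, 72 and 66 bases before it, Oas3 at chr5:120777610-120777909 (minus strand) with a match 75 bases before it, and Ifit3 at chr19:34583279-34583578 (plus strand) with 2 matches on the opposite strand, 156 and 122 bases before it.
Ifitm3: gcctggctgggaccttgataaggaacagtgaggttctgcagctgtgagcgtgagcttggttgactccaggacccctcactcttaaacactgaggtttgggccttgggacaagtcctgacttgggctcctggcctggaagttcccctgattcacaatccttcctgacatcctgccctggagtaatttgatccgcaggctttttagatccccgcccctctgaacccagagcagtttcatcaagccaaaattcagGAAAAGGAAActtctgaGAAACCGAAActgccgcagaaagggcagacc
Isg15: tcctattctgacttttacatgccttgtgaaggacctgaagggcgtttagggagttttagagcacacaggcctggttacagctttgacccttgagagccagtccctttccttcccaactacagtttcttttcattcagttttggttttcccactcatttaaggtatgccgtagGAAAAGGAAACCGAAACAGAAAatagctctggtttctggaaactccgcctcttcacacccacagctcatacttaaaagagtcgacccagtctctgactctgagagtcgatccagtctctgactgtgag
Oas3: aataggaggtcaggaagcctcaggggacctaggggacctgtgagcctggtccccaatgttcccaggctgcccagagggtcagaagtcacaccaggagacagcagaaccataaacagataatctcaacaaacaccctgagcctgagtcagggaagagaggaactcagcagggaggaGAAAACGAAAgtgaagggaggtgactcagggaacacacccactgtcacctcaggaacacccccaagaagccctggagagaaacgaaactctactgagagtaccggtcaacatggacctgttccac
Ifit3: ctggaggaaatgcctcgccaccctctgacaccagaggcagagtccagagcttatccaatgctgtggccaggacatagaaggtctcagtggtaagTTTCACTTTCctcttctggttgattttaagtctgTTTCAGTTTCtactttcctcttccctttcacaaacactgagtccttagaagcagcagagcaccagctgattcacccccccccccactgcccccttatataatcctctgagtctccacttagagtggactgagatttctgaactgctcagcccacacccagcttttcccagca

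A match of these letters is a description of the window and not a binding site. The element was found in both interferon lists and does not tell them apart. Irf7 and Xaf1 had windows with no match.

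**Figure D2:**
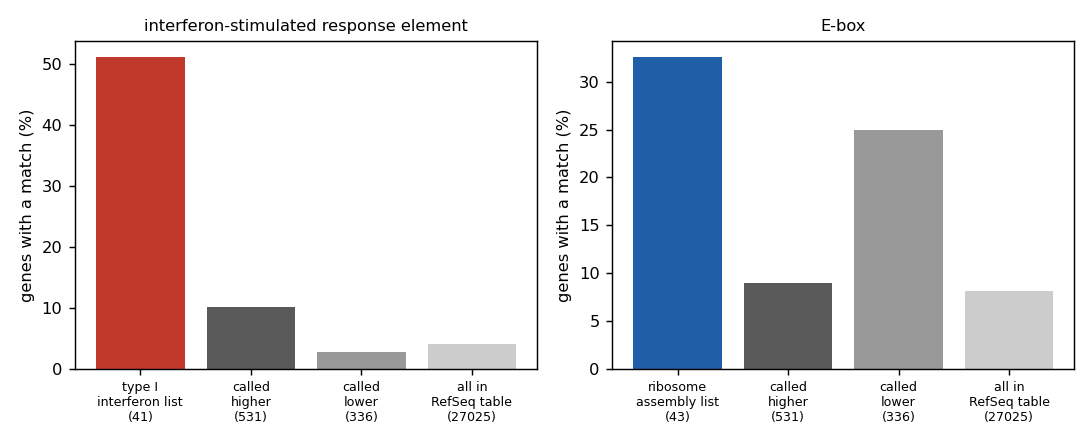
Bars give the percentage of genes whose promoter window holds a match on either strand, for the interferon-stimulated response element (left) and the E-box (right), with the number of genes with a window in brackets. The element was found in 51.2% of the type I interferon list and 4.0% of all genes of the RefSeq table. The E-box was found in 32.6% of the ribosome assembly list and 8.1% of all genes of that table.

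Genes of the response to interferon gamma and of antigen presentation were higher in spinal cord with the values as deposited, by less, and with equal totals the list's share of higher genes was near that of all genes. All 23 tested genes of the list were called higher with the values as deposited (61.0% over all genes), with a median log2 fold change of 1.17. With equal totals 6 of the 23 stayed called (24.8% over all genes), the median was 0.25 and 3 genes lay below 0 (Socs1, B2m and Nlrc5). Gbp5 (chromosome 3, 142496934 to 142522344), a GTPase that acts on intracellular pathogens and the inflammasome, had 12.3, 4.48 and 14.8 FPKM in spinal cord, against 0.57, 1.81 and 0.87 FPKM in spleen. Gbp10 and Gbp2, of the same family, were 10.8-fold and 3.26-fold higher in spinal cord. Guanylate-binding protein genes are close copies of each other, and Gbp10 shares 1792 exonic bases with another annotated gene. H2-Eb1, a chain of the class II molecule that presents peptides to CD4 T cells, had 24.6, 24.3 and 24.7 FPKM in spinal cord, against 6.06, 4.35 and 4.97 FPKM in spleen. The class I genes were abundant in both tissues. B2m, the shared light chain of class I molecules, averaged 5366 ± 210 FPKM in spinal cord and 2927 ± 73.5 FPKM in spleen, and H2-D1 averaged 3303 ± 155 FPKM in spinal cord and 1679 ± 80.9 FPKM in spleen (SD, n = 3 each). Their log2 fold changes of 0.87 (B2m) and 0.98 (H2-D1) became -0.06 and 0.04 with equal totals and -0.33 and -0.19 with quantile normalisation.

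Receptors for cytokines were mostly higher in spinal cord with the values as deposited, and with equal totals their share of higher genes was near that of all genes. Of 13 receptor genes tested, 11 were higher (61.0% over all genes) and 2 lower. With equal totals 4 of the 11 stayed called (24.8% over all genes), as did both lower ones. Il12rb2 (chromosome 6, 67285986 to 67376293), the signalling chain of the interleukin 12 receptor, had 337, 153 and 243 FPKM in spinal cord, against 10.3, 14.5 and 8.46 FPKM in spleen, 4.30 higher on the log2 scale (SE 0.28, limma adjusted p = 2.33e-07). It shares 1519 exonic bases with the opposite-strand gene Serbp1, and without strand the reads of the 2 genes cannot be told apart there. Ifngr1 (chromosome 10, 19591949 to 19610229), the ligand-binding chain of the interferon gamma receptor, had 285, 206 and 258 FPKM in spinal cord, against 34.8, 25.7 and 37.2 FPKM in spleen. The groups of both genes were far apart, and both stayed called with equal totals. The second chain, Ifngr2, was 2.99-fold higher in spinal cord with the values as deposited and had a log2 fold change of 0.69 (limma adjusted p = 0.066) with equal totals. Ifnar1, a chain of the type I interferon receptor, averaged 23.9 ± 3.45 FPKM in spinal cord and 7.97 ± 3.07 FPKM in spleen, and its log2 fold change was 1.52 as deposited and 0.66 with equal totals (limma adjusted p = 0.086). The decoy receptor Il1r2, which captures interleukin 1 without signalling, had 10.1, 14.1 and 3.44 FPKM in spinal cord, against 0, 1.6 and 2.55 FPKM in spleen.

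The 2 receptors that were lower in spinal cord were Tgfbr1, the signalling receptor of TGF-beta, with 11.8, 7.87 and 3.56 FPKM in spinal cord, against 21.2, 24.6 and 31 FPKM in spleen, and Il6ra, the interleukin 6 receptor, with 10.9, 9.98 and 7.33 FPKM in spinal cord, against 30.9, 24.7 and 26.5 FPKM in spleen. Among genes of cytokine signalling inside the cell, Stat4, the factor activated by interleukin 12, had 45, 39.1 and 65.5 FPKM in spinal cord, against 7.41, 7.37 and 8.47 FPKM in spleen. Socs3, a feedback inhibitor of cytokine signalling, had 72.4, 48.9 and 64.3 FPKM in spinal cord, against 6.47, 8.63 and 6.64 FPKM in spleen. The log2 fold changes were 2.51 for Stat4 and 2.92 for Socs3, and 1.63 and 2.05 with equal totals. All 5 tested genes of the list of cytokine signalling inhibitors and JAK kinases were higher with the values as deposited (61.0% over all genes). With equal totals 1, Socs3, stayed called (24.8% over all genes) and Socs1 lay at -0.04.

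**Figure D3:**
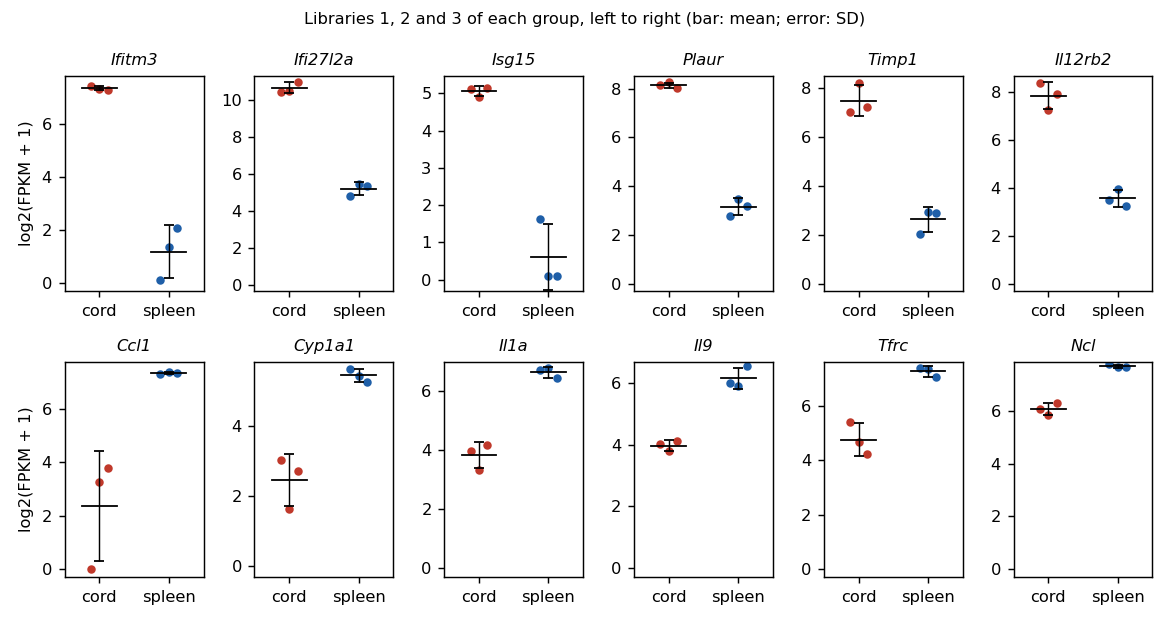
Each panel shows 1 gene as log2(FPKM + 1) in the 3 spinal cord libraries (red, left) and the 3 spleen libraries (blue, right), with the mean as a bar and the SD as the error. In all 12 genes the groups do not overlap, as in 97.6% of all genes. The widest spread within a group is that of Ccl1 in spinal cord, which was listed at 0 in library 1.

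Cytokine genes were divided between the tissues. Of 10 cytokine and growth factor genes tested, 5 were higher in spinal cord (61.0% over all genes) and 5 lower (38.6%). With equal totals 1 of the 5 higher genes (24.8% over all genes) and all 5 lower genes (38.6%) stayed called. Il4, the cytokine of type 2 helper responses, was listed at 0.11, 0 and 0 FPKM in spinal cord, against 6.79, 3.16 and 3.65 FPKM in spleen. Il9, a cytokine that acts on mast cells and T cells, had 15.1, 12.7 and 16.4 FPKM in spinal cord, against 62.6, 59.4 and 92.7 FPKM in spleen. Il2, the T cell growth factor, had 1.05, 0 and 0.66 FPKM in spinal cord, against 4.81, 5.37 and 10.6 FPKM in spleen. Each of the 3 was below its whole spleen range in every spinal cord library, and groups did not overlap in 97.6% of all genes. In the other direction, Il1b, an inflammatory cytokine made chiefly by myeloid cells, had 6.95, 5.84 and 4.12 FPKM in spinal cord, against 0, 0 and 1.16 FPKM in spleen, and it was the gene that stayed called with equal totals. Il10, a suppressive cytokine of Treg cells, had 25.9, 20.7 and 25 FPKM in spinal cord, against 11.1, 11.9 and 7.47 FPKM in spleen, 1.17 higher on the log2 scale (SE 0.25, limma adjusted p = 0.000965), which became 0.30 (limma adjusted p = 0.41) with equal totals. Ebi3, a subunit of interleukins 27 and 35, was 2.38-fold higher in spinal cord and had a log2 fold change of 0.36 with equal totals. Il17a had 11.3, 42.5 and 25.4 FPKM in spinal cord, against 7.77, 8.69 and 9.46 FPKM in spleen, so that its spinal cord libraries were far apart and the lowest of them was close to the spleen.

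Among 7 chemokine genes tested, 4 were higher in spinal cord (61.0% over all genes), of which 3 stayed called with equal totals (24.8%). The other 3 were lower in both (38.6% over all genes). The lower ones were Ccl1, Ccl3 and Xcl1, chemokines that T cells make after activation. Xcl1, which attracts cross-presenting dendritic cells, had 31.2, 61.9 and 33.3 FPKM in spinal cord, against 115.1, 114.3 and 116.1 FPKM in spleen. Cxcl10, an interferon-induced ligand of CXCR3, had 4.93, 17.6 and 5.34 FPKM in spinal cord, against 0, 1.54 and 1.48 FPKM in spleen. Cxcl3, a neutrophil attractant, had 4.53, 5.7 and 6.18 FPKM in spinal cord, against 0, 0.83 and 0 FPKM in spleen.

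The label of the cells was checked against Treg genes. Of 21 genes of the Treg identity list, 4 had a row, and they were above 0 in all 6 libraries. Ctla4, an inhibitory receptor, was 4.78-fold and Tnfrsf18, the receptor GITR, 2.62-fold higher in spinal cord, while quantile normalisation left Tnfrsf18 uncalled at 0.10. Nrp1, a receptor typical of Treg cells of thymic origin, had 3.92, 3.84 and 3.83 FPKM in spinal cord, against 14.7, 13.5 and 14.2 FPKM in spleen. The receptor gene Gpr83 had 37.7, 20 and 28.5 FPKM in spinal cord, against 67.1, 68.8 and 56.5 FPKM in spleen. The 17 other genes of the identity list, Foxp3 among them, had no row, so the label could be checked on these 4 only.

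Genes listed as typical of activated or tissue Treg cells were higher in spinal cord. All 9 tested were called higher (61.0% over all genes), and 7 with equal totals (24.8% over all genes). They are the receptors Tnfrsf9, Tigit, Lag3, Tnfrsf4, Icos and Il1r2, the surface protein Cd83 and the transcription factors Bhlhe40 and Rora. Tnfrsf9, which encodes 4-1BB, a costimulatory receptor (chromosome 4, 150920155 to 150946104), had 1132, 1147 and 1056 FPKM in spinal cord, against 161, 170 and 171 FPKM in spleen. Tigit averaged 224 ± 31 FPKM in spinal cord and 57.6 ± 6.8 FPKM in spleen, and Lag3 116 ± 17.3 FPKM in spinal cord and 33.4 ± 3.32 FPKM in spleen (SD, n = 3 each). Both are inhibitory receptors. Tnfrsf4 and Icos, a pair of costimulatory receptors, were 2.29-fold and 2.26-fold higher as deposited and were not called with equal totals (log2 fold changes of 0.24 for Tnfrsf4 and 0.23 for Icos). Of suppressive and cytolytic effectors, all 7 tested were higher (61.0% over all genes), 5 of them with equal totals (24.8% over all genes). Gzmb, the protease granzyme B, had 61.3, 30.9 and 112 FPKM in spinal cord, against 15, 14.1 and 17.5 FPKM in spleen, and Serpinb9, the inhibitor of granzyme B, had 29.8, 21.8 and 36.2 FPKM in spinal cord, against 6.26, 4.68 and 6.75 FPKM in spleen. In both genes spinal cord library 2 was the lowest of its group and library 3 the highest. Fasl, the death receptor ligand, had 118, 85.8 and 123 FPKM in spinal cord, against 15.3, 11.4 and 18.2 FPKM in spleen.

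Receptors that guide cells through tissue were higher in spinal cord in 10 of the 11 tested (61.0% over all genes), and 1, Gpr15, was lower. With equal totals 8 of the 10 stayed called (24.8% over all genes), and Gpr15 stayed lower. Genes of recirculating cells were among the higher ones. S1pr1, which takes lymphocytes out of tissue along sphingosine-1-phosphate, had 59.4, 44 and 68.8 FPKM in spinal cord, against 11.6, 8.41 and 12.7 FPKM in spleen. Ccr7, the receptor for lymph node chemokines, had 2065, 1603 and 1917 FPKM in spinal cord, against 434, 423 and 425 FPKM in spleen. Il7r, the interleukin 7 receptor of long-lived T cells, averaged 36.8 ± 4.89 FPKM in spinal cord and 7.79 ± 1.49 FPKM in spleen (SD, n = 3 each). The list of resting lymphoid T cells had 7 tested genes, all higher as deposited (61.0% over all genes). With equal totals 5 stayed called (24.8% over all genes), and Actn1, whose groups overlapped, lay at -0.01. Ccr6, a receptor of T cells in inflamed barrier tissue, had 205, 316 and 248 FPKM in spinal cord, against 65.3, 69.2 and 67.2 FPKM in spleen. S1pr3 had 10.1, 11.7 and 11.6 FPKM in spinal cord, against 1.81, 1.89 and 0.9 FPKM in spleen. Gpr15, a homing receptor for the large intestine, had 6.01, 6.74 and 9.91 FPKM in spinal cord, against 20.1, 18.8 and 14.8 FPKM in spleen.

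Adhesion and motility genes were mostly higher in spinal cord. Of 11 integrin and adhesion genes tested, 10 were higher in spinal cord (61.0% over all genes) and 1 lower. With equal totals 7 of the 10 stayed called (24.8% over all genes), and Thy1 lay at -0.02. Plaur (chromosome 7, 24460937 to 24475970), the urokinase receptor that directs proteolysis at the cell surface, had 280, 305 and 260 FPKM in spinal cord, against 5.91, 10.1 and 8.12 FPKM in spleen. Itgb3, the integrin chain that binds vitronectin, had 5.18, 3.35 and 2.84 FPKM in spinal cord, against 0, 0 and 0.1 FPKM in spleen. Tspan4, a tetraspanin, was the lower one, with 4.16, 2.95 and 4.69 FPKM in spinal cord, against 16.2, 18.4 and 8.39 FPKM in spleen. All 15 tested genes of the actin cytoskeleton list were higher as deposited (61.0% over all genes). With equal totals 9 stayed called (24.8% over all genes) and 3 lay below 0 (S100a10, Rhog and Actn1). Anxa2, a membrane protein that binds plasminogen, had 175, 193 and 206 FPKM in spinal cord, against 24.6, 30.2 and 23.2 FPKM in spleen. Rhoc, a GTPase of cell migration, had 40.6, 38.1 and 53.6 FPKM in spinal cord, against 6.83, 4.73 and 5.38 FPKM in spleen, and Gsn, the actin-severing protein gelsolin, was 5.65-fold higher in spinal cord. Each of the 3 was more than 5-fold higher with groups that did not overlap, as in 97.6% of all genes.

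The GTPases of immune-associated proteins, which govern lymphocyte survival, formed a smaller group. Gimap7 (chromosome 6, 48718621 to 48724636) had 57.1, 30.3 and 56.4 FPKM in spinal cord, against 3.52, 1.55 and 2.53 FPKM in spleen, 3.78 higher on the log2 scale (SE 0.32, limma adjusted p = 1.95e-06). Its neighbours Gimap6, Gimap4 and Gimap3 were 3.67-fold, 2.67-fold and 2.48-fold higher, and Gimap3 was not called with equal totals (0.36). These genes are close copies in 1 cluster on chromosome 6. The list also holds Gpr171 and Gpr18. Its 6 tested genes were all higher as deposited (61.0% over all genes), and 3 with equal totals (24.8% over all genes). Genes of G protein-coupled receptors went both ways: of 14 tested, 10 were higher (6 with equal totals) and 4 lower (4 with equal totals). Over all genes 61.0% were higher (24.8% with equal totals) and 38.6% lower in both. Gpr65, a proton sensor, had 78.7, 75.6 and 90.3 FPKM in spinal cord, against 14.7, 9.83 and 16.1 FPKM in spleen. Adora2a, the adenosine receptor that raises cAMP in T cells, had 14.6, 8.02 and 14.7 FPKM in spinal cord, against 0.8, 3.73 and 2.69 FPKM in spleen. F2rl3, a protease-activated receptor, had 3.56, 1.52 and 2.1 FPKM in spinal cord, against 14.8, 12.3 and 12.1 FPKM in spleen.

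Genes of T cell receptor signalling, its adaptors and its early response were divided. Of 9 genes of the list tested, 6 were higher (61.0% over all genes), of which 2 stayed called with equal totals (24.8%). The other 3 were lower in both (38.6% over all genes). The lower ones were Rcan1, a calcineurin-induced gene, with 0.55, 3.67 and 0.62 FPKM in spinal cord, against 14.4, 6.91 and 9.68 FPKM in spleen, and the early growth response factors Egr2 and Egr3. Egr2 had 8.47, 16.6 and 12.6 FPKM in spinal cord, against 62.4, 56.5 and 42.9 FPKM in spleen, and Egr3 was listed at 0, 0.11 and 0.62 FPKM in spinal cord, against 1.83, 3.25 and 4.79 FPKM in spleen. Cblb, a ubiquitin ligase that restrains T cell receptor signals, had 56.5, 34.3 and 35.2 FPKM in spinal cord, against 12.4, 12.4 and 8.64 FPKM in spleen. The immediate early genes Nr4a2 and Nr4a3 were 2.10-fold and 1.92-fold higher as deposited and uncalled with equal totals, where Nr4a3 lay just below 0.

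Of 23 transcription factors of lymphocytes tested, 15 were higher in spinal cord (10 with equal totals) and 8 lower (8 with equal totals). Over all genes 61.0% were higher (24.8% with equal totals) and 38.6% lower in both. Crem, a regulator in the cAMP pathway, averaged 192 ± 9.3 FPKM in spinal cord and 39.8 ± 3.52 FPKM in spleen, and Mxd1, which competes with MYC for its partner MAX, 75.8 ± 12.4 FPKM in spinal cord and 15.3 ± 0.468 FPKM in spleen (SD, n = 3 each). Hif1a, the oxygen-regulated factor, had 394, 258 and 204 FPKM in spinal cord, against 71, 61 and 62.6 FPKM in spleen, and shares 148 exonic bases with another annotated gene. Among the lower ones, Rxra, the partner of many nuclear receptors, had 2.11, 2.34 and 2 FPKM in spinal cord, against 20.1, 17.1 and 22.1 FPKM in spleen, with little spread in either group. Id3, an inhibitor of E proteins, was 2.93-fold lower in spinal cord.

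The aryl hydrocarbon receptor Ahr, a ligand-activated factor, was among the lower ones, as were genes that it is known to induce. Ahr was listed at 0.12, 0 and 0.25 FPKM in spinal cord, against 2.68, 3.89 and 2.13 FPKM in spleen. Cyp1a1 had 7.24, 2.13 and 5.63 FPKM in spinal cord, against 49.1, 42.7 and 37.8 FPKM in spleen. Cyp1b1 had 0.79, 0.19 and 0.11 FPKM in spinal cord, against 5.09, 2.92 and 0.87 FPKM in spleen, and Tiparp, which represses the receptor, had 7.34, 7.01 and 3.88 FPKM in spinal cord, against 18, 11.6 and 16.8 FPKM in spleen. The groups did not overlap in any of the 4 genes, which held for 97.6% of all genes, and the 4 stayed called with equal totals, as did all 414 lower genes. They belong to the list of oxidative stress and xenobiotic genes, where 12 of 20 tested were higher (6 with equal totals) and 8 lower (8 with equal totals). Those shares are near the 61.0% higher (24.8% with equal totals) and 38.6% lower of all genes. The 4 were put together after their values were seen. The core of the xenobiotic response element, TGCGTG on either strand, was present in 16.4% of the promoter windows of genes called lower and 9.6% of those called higher. It was found in 12.2% of the windows of tested genes and 9.6% of those of all genes of the RefSeq table. It was present in 1 of the 18 windows of the oxidative stress and xenobiotic list (5.6%) and 9 of the 43 of the ribosome assembly list (20.9%). The Cyp1a1 window held none.

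The longest list of lower genes was that of ribosome assembly, the making of ribosomes in the nucleolus, and of other genes of the nucleolus. Of 117 genes on the list, 48 had a row and were tested, and the others are not analysed here. All 48 were lower in spinal cord as deposited and with equal totals, against 38.6% over all genes in both. Their log2 fold changes lay between -1.08 (Aen) and -1.82 (Rrp12), and the median was -1.28, or -2.19 with equal totals. The list holds genes of several steps of the pathway, beside genes such as Aen and Wdr77 that are placed in no step here. For transcription of ribosomal DNA, Polr1a and Polr1b, subunits of RNA polymerase I, were 2.50-fold and 2.53-fold lower in spinal cord. Of the box C/D particle that methylates ribosomal RNA, Nop56 averaged 195 ± 35.5 FPKM in spinal cord and 453 ± 19.5 FPKM in spleen, and Dkc1, the pseudouridine synthase of the H/ACA particle, averaged 50.1 ± 15.9 FPKM in spinal cord and 154 ± 7.65 FPKM in spleen (SD, n = 3 each). Ncl (nucleolin, chromosome 1, 86344719 to 86359455) had 67.7, 56.9 and 78.8 FPKM in spinal cord, against 220, 205 and 204 FPKM in spleen. Npm1 (nucleophosmin, chromosome 11, 33152498 to 33164142) had 425, 442 and 527 FPKM in spinal cord, against 1054, 1037 and 1029 FPKM in spleen. These nucleolar proteins are among the most abundant of the list, and their groups lay well apart.

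For processing of the precursor RNA and for subunit assembly, Rrp15 had 24.2, 23.8 and 23.1 FPKM in spinal cord, against 91.9, 84.2 and 79 FPKM in spleen. Rrp12 had 10, 5.53 and 10.8 FPKM in spinal cord, against 30.5, 31.4 and 36.3 FPKM in spleen, and Heatr1 had 9.76, 6.12 and 4.86 FPKM in spinal cord, against 23.6, 25.4 and 28.1 FPKM in spleen. Dhx33, a helicase of the nucleolus, had 3.39, 3.04 and 3.06 FPKM in spinal cord, against 13.6, 11.2 and 14 FPKM in spleen. Wdr77, a partner of the arginine methyltransferase PRMT5, is on the list but placed in no step here. It had 19, 20.1 and 21.5 FPKM in spinal cord, against 64.7, 67 and 61.9 FPKM in spleen. In each of these genes the highest spinal cord library held less than the lowest spleen library, and groups did not overlap in 97.6% of all genes. The log2 fold changes of the type I interferon genes, by comparison, ran from 0.85 at Sp140 to 6.16 at Ifitm3.

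The E-box CACGTG, the sequence bound by MYC with MAX and by related factors, was added to the motifs searched after the lists had been seen. It was present in 14 of the 43 ribosome assembly genes with a promoter window (32.6%), in 84 of the 336 genes called lower (25%) and in 9.0% of the 531 called higher. The share was 15.2% over the tested genes with a window and 8.1% over all genes of the RefSeq table. The E-box reads the same on both strands. Each E-box also holds the shorter core ACGTG, which was present in 40.8% of windows of genes called lower and 25% of those called higher. That core was present in 31.1% of the windows of tested genes and 21.8% of those of all genes of the RefSeq table. No window of the 41 type I interferon genes held an E-box, and no window of the 43 ribosome assembly genes held the interferon-stimulated response element. The windows of the 2 genes of the list with the largest differences among those that hold a match are shown with the E-box in capitals. Dhx33 lies at chr11:71004383-71004682 (minus strand), with the match 35 bases before the start, and Wdr77 at chr3:105959248-105959547 (plus strand), with the match 10 bases after it.
Dhx33: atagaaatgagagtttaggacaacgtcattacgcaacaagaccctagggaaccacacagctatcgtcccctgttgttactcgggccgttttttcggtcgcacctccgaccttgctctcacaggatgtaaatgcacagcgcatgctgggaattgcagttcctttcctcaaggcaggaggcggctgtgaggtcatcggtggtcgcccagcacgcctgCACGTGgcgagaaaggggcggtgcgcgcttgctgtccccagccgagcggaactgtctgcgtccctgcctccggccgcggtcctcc
Wdr77: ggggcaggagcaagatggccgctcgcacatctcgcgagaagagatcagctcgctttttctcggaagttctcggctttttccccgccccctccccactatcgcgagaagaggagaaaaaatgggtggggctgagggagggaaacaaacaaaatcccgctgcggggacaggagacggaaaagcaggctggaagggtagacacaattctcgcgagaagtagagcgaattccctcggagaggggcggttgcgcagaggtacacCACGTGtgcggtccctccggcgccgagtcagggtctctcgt

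Genes of further steps of translation were lower too. All 13 tested genes of tRNA charging, tRNA modification and translation factors were lower in spinal cord, also with equal totals (38.6% over all genes in both). Their median log2 fold change was -1.38. Yars2, the tyrosyl-tRNA synthetase of mitochondria, had 2.74, 2.19 and 0.63 FPKM in spinal cord, against 13.2, 14.2 and 9.01 FPKM in spleen. Trmt61a, which methylates tRNA, had 6.7, 5.86 and 3.44 FPKM in spinal cord, against 19.7, 28.8 and 23.1 FPKM in spleen, and Nsun2, another tRNA methyltransferase, was 2.79-fold lower. The nuclear protein genes Set and Hmgn1 and the mitochondrial protein gene C1qbp were among the 10 largest falls in mean FPKM. Hmgn1 averaged 159 ± 27.3 FPKM in spinal cord and 428 ± 9.83 FPKM in spleen, and C1qbp 162 ± 18.5 FPKM in spinal cord and 429 ± 15.4 FPKM in spleen (SD, n = 3 each).

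The proteins of the finished cytosolic ribosome went the other way with the values as deposited. All 10 tested ribosomal protein genes were called higher in spinal cord, with a median log2 fold change of 0.96, close to the 0.95 of all genes. With equal totals limma called 0 of the 10, also at an unadjusted p under 0.05, the median was 0.02 and 4 lay below 0. With quantile normalisation 1 was called and 6 lay below 0, and with median-ratio scaling 0 were called. The spinal cord libraries also differed strongly among themselves. Rps27 had 1766, 4776 and 5122 FPKM in spinal cord, against 1720, 1447 and 1601 FPKM in spleen. Rpl36 had 724, 1778 and 1746 FPKM in spinal cord, against 691, 654 and 665 FPKM in spleen. In spinal cord library 1 both genes were close to the spleen level. Rpl37 had 103, 304 and 315 FPKM in spinal cord, against 120, 108 and 132 FPKM in spleen, so that library 1 lay below all 3 spleen libraries. Spinal cord library 1 was the lowest of its group in 10 of the 10 genes. Ribosomal protein genes have many processed pseudogenes, among which the counting may have divided reads.

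**Figure D4:**
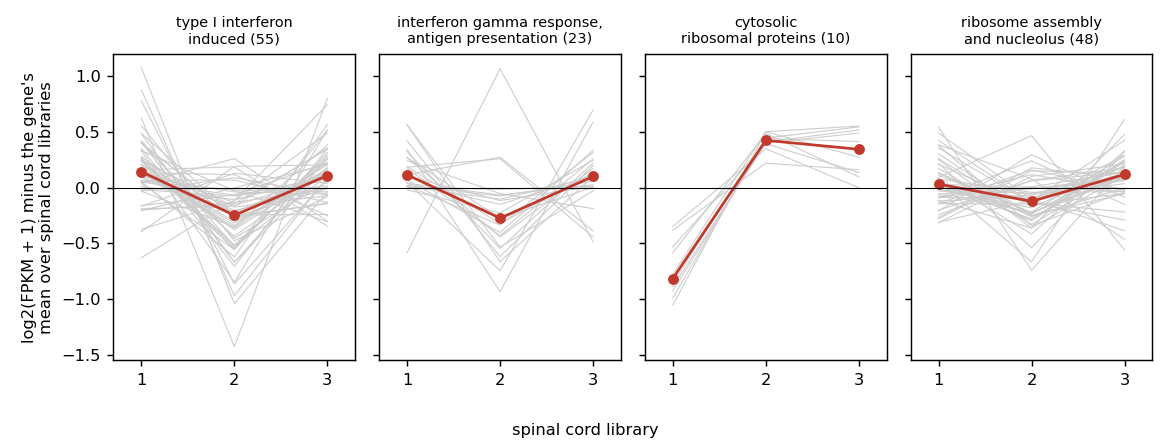
Each grey line is 1 gene, shown in spinal cord libraries 1, 2 and 3 as log2(FPKM + 1) minus the gene's mean over the 3 libraries, with the median of the list in red and the number of genes tested in brackets. Library 1 was lowest in 10 of 10 ribosomal protein genes, and library 2 was lowest in 39 of 55 type I interferon genes and in 19 of 23 interferon gamma genes.

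The spinal cord libraries differed from each other by list. Library 2 was the lowest of its group in 39 of 55 type I interferon genes and in 19 of 23 interferon gamma genes, against 446 of all 1072 genes. Usp18, which removes ISG15 from proteins, had 112, 53.3 and 112 FPKM in spinal cord libraries 1, 2 and 3, and Stat2 had 42.9, 11.2 and 24.6 FPKM. All 6 genes of the GIMAP list were also lowest in library 2. Library 1 was highest in 11 of 13 cytokine receptor genes and lowest in 9 of 11 mitochondrial genes and 9 of 15 actin cytoskeleton genes, against highest in 404 and lowest in 280 of all 1072 genes. The median coefficient of variation per gene was 23.8% in spinal cord and 19.0% in spleen. Leaving out any 1 of the 6 libraries changed the count of no list given here, cell markers aside, by more than 1.5 times.

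Genes of mitochondria were divided. Of 11 tested, 7 were lower in spinal cord, also with equal totals (38.6% over all genes in both). The other 4 were higher as deposited (61.0% over all genes). Of those 4, limma called 0 with equal totals, also at an unadjusted p under 0.05, and 1 with median-ratio scaling. The lower ones were the chaperones Hspd1 and Hspa9, the import factors Timm9 and Timm21, the mitochondrial ribosomal proteins Mrpl38 and Mrpl50, and Ndufaf4, an assembly factor of complex I of the respiratory chain, which was 2.73-fold lower in spinal cord. Hspd1, the chaperonin HSP60, had 180, 158 and 177 FPKM in spinal cord, against 447, 412 and 435 FPKM in spleen, and shares 112 exonic bases with Hspe1. Timm9, an import chaperone, had 12.1, 22.8 and 12.4 FPKM in spinal cord, against 46.1, 39.2 and 57.3 FPKM in spleen. Cox17, Ndufa1 and Ndufa3, genes of the respiratory chain, and Ucp2, an inner membrane carrier, were the 4 higher ones as deposited, and Ndufa1 lay at -0.05 with equal totals.

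Genes that supply amino acids, nucleotides and polyamines were divided. Of 15 tested genes of amino acid, one-carbon and nucleotide synthesis, 8 were lower in spinal cord, also with equal totals (38.6% over all genes in both). The other 7 were higher (61.0% over all genes), of which 4 stayed called with equal totals (24.8%). Cad, Dhodh and Ctps, enzymes of pyrimidine synthesis, were 2.53-fold, 3.41-fold and 2.29-fold lower in spinal cord. Srm, the spermidine synthase, had 34.2, 55.8 and 27.5 FPKM in spinal cord, against 142, 174 and 177 FPKM in spleen, a difference of -2.09 on the log2 scale (SE 0.23, limma adjusted p = 1.17e-05). Odc1, the enzyme one step before it, had 109, 352 and 90.1 FPKM in spinal cord, against 37.2, 42.4 and 44.5 FPKM in spleen, so that library 2 stood apart from the other two. Upp1 (chromosome 11, 9118008 to 9136170), the phosphorylase that releases uracil from uridine, had 317, 342 and 321 FPKM in spinal cord, against 31.3, 42.1 and 50.1 FPKM in spleen, 2.98 higher on the log2 scale (SE 0.18, limma adjusted p = 1.67e-07) with little spread. Arg1, the arginase that T cells rarely make and macrophages make in repair, had 26.1, 45.1 and 47.5 FPKM in spinal cord, against 4.89, 7.2 and 2.88 FPKM in spleen.

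Transporters of nutrients were divided too. Of 23 solute carriers tested, 13 were lower in spinal cord, also with equal totals (38.6% over all genes in both). The other 10 were higher (61.0% over all genes). With equal totals 1 of these stayed called (24.8% over all genes) and 3 lay below 0. Slc19a1, the reduced folate carrier, had 32.7, 23.1 and 30.8 FPKM in spinal cord, against 109, 131 and 112 FPKM in spleen. Slc16a1, a lactate and pyruvate carrier, had 16, 18.2 and 15.8 FPKM in spinal cord, against 50, 53.8 and 54.1 FPKM in spleen, and Slc29a1, a nucleoside carrier, had 173, 132 and 183 FPKM in spinal cord, against 375, 384 and 382 FPKM in spleen. All 3 were lower in every spinal cord library, and groups did not overlap in 97.6% of all genes. The carrier that stayed higher with equal totals was Slc15a3, a histidine and peptide carrier of lysosomes, with 67.6, 102 and 67.8 FPKM in spinal cord, against 10.9, 5.38 and 8.75 FPKM in spleen. For iron, Tfrc, the transferrin receptor that takes iron up, had 41.5, 24.3 and 17.6 FPKM in spinal cord, against 168, 165 and 132 FPKM in spleen. Fth1, the ferritin chain that stores it, had 3532, 4539 and 3727 FPKM in spinal cord, against 1397, 1487 and 1418 FPKM in spleen, with a log2 fold change of 1.45 as deposited, 0.51 with equal totals (limma adjusted p = 0.0026) and 0.20, not called, with quantile normalisation.

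**Figure D5:**
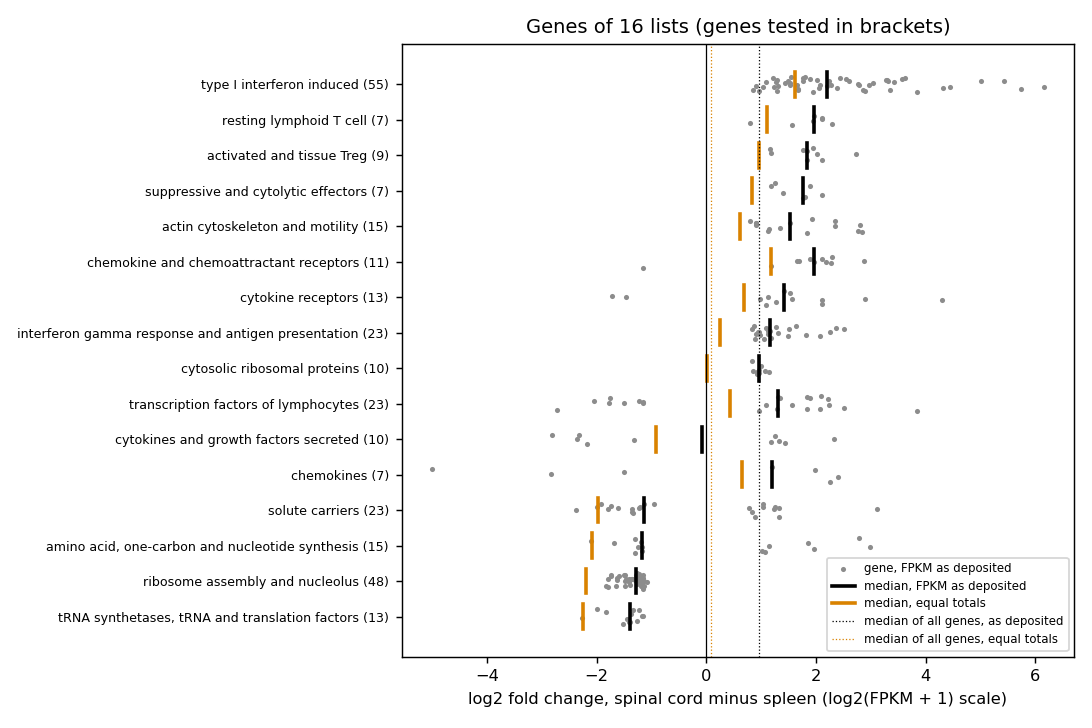
Each grey point is the log2 fold change of 1 gene, spinal cord minus spleen, in 16 gene lists, with the median as a black bar for the FPKM as deposited and an orange bar for equal totals, and dotted lines for the medians of all 1072 genes (0.95 and 0.09). With the values as deposited the ribosome assembly and tRNA lists lie wholly below 0. The type I interferon, resting T cell, activated Treg, suppressive effector, actin, interferon gamma and ribosomal protein lists lie wholly above it.

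Several of the largest rises were in genes outside the lists described so far. Timp1 (chromosome X, 20870166 to 20874737), an inhibitor of matrix metalloproteinases, is on the list of fibroblast and matrix markers described further on. It had 128.5, 290.9 and 148.8 FPKM in spinal cord, against 3.1, 6.61 and 6.5 FPKM in spleen. Ccn4, a secreted matrix protein, had 33.7, 36 and 31.8 FPKM in spinal cord, against 1.46, 0.97 and 0.58 FPKM in spleen. Sdcbp2 averaged 148 ± 10.1 FPKM in spinal cord and 8.78 ± 1.36 FPKM in spleen (SD, n = 3 each). Tg, the thyroglobulin gene, had 25.8, 22.2 and 25.8 FPKM in spinal cord, against 0.39, 0.21 and 1.38 FPKM in spleen. It spans 66670754 to 66850721 on chromosome 15, and Sla, an adaptor of T cell receptor signalling that was 3.02-fold higher in spinal cord, lies within that span at 66780819 to 66831829 on the opposite strand. Their exons share no bases in GENCODE vM21. Among the falls, Apol9a, of an apolipoprotein family with near-identical copies, had 2.14, 3.63 and 4.01 FPKM in spinal cord, against 27.3, 24.3 and 21.1 FPKM in spleen, and Gal, the neuropeptide galanin, was listed at 0.85, 0 and 0 FPKM in spinal cord, against 7.11, 7.09 and 4.45 FPKM in spleen.

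The largest rises in mean FPKM were in Gm20594, Tmsb4x and Rpl41. Tmsb4x, which encodes the actin-binding peptide thymosin beta 4, averaged 8024 ± 291 FPKM in spinal cord and 3635 ± 75.8 FPKM in spleen (SD, n = 3 each), and was not called with equal totals (0.21). The predicted gene Gm20594, for which the sources used here give no role, had 5454, 10796 and 8946 FPKM in spinal cord, against 2200, 2133 and 2233 FPKM in spleen. The 20 highest genes held 50.2% to 55.2% of the table sum in the spinal cord libraries, against 43.6% to 43.9% in the spleen libraries.

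Markers of other cells were measured in the same libraries. In bulk samples fewer cells of a type and less RNA per cell cannot be told apart. Of 31 neutrophil markers 6 had a row, and their FPKM summed to 109.9, 166.7 and 113.3 in spinal cord, against 7.01, 9.77 and 6.27 in spleen. All 5 that were tested were higher (61.0% over all genes), also with equal totals (24.8% over all genes). Slpi, a secreted peptidase inhibitor, with 72.6, 61.5 and 42.6 FPKM in spinal cord, against 0, 0 and 2.05 FPKM in spleen, held the largest difference. Ltb4r1, the leukotriene B4 receptor, had 5.43, 11.8 and 3.83 FPKM in spinal cord and was listed at 0 in the 3 spleen libraries. Fpr1, the receptor for formyl peptides, had 3.5, 5.74 and 2.14 FPKM in spinal cord and was likewise listed at 0 in spleen. S100a8 was 12-fold and Mmp8 4.11-fold higher in spinal cord. Of 49 markers of myeloid cells, microglia and macrophages 10 had a row, and their FPKM summed to 113.6, 105.3 and 104.8 in spinal cord, against 27.2, 31 and 38 in spleen. All 8 that were tested were higher as deposited (61.0% over all genes) and 4 with equal totals (24.8% over all genes). Cd14 had 24.5, 26.2 and 18.1 FPKM in spinal cord, against 0, 2 and 1.2 FPKM in spleen, and Fcgr2b had 1.06, 5.85 and 1.81 FPKM in spinal cord and was listed at 0 in spleen.

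Of 29 B cell and plasma cell markers 2 had a row, Cd79b and Ly6d, with summed FPKM of 8.11, 8.08 and 4.43 in spinal cord, and both were listed at 0 in spleen. Of 26 fibroblast and matrix markers 4 had a row and summed to 144.1, 314.9 and 157.3 FPKM in spinal cord, against 5.6, 8.97 and 10.9 FPKM in spleen. Most of it in spinal cord was Timp1, beside Thbs1, Igfbp7 and a low level of Pdgfrb. Of 33 markers of CD8 T, NK and innate-like T cells 6 had a row and summed to 63.5, 79 and 67.6 FPKM in spinal cord, against 125.8, 120.5 and 122.1 FPKM in spleen, with Xcl1 the largest part in spleen. Klrk1, an activating receptor of NK and CD8 T cells, was 6.56-fold and Klrc1 2.70-fold higher in spinal cord as deposited, and Klrc1 was not called with equal totals. The rows of the remaining lists were Cd83 and Bst2 for dendritic cells, Ly6c1, Ly6a, Pecam1 and Kdr for endothelium, Cnp for oligodendrocytes, and Nefh, Chgb and Gad2 for neurons, several of which T cells also express. No marker of mast cells, astrocytes or red cells had a row. Between the tissues, Il1b, Cxcl3, Arg1, Plaur and the interferon genes were higher in spinal cord, as were the neutrophil, myeloid and fibroblast markers tested. So were 61.0% of all genes, and a direction shared between cord and spleen cannot link genes to markers. Among the spinal cord libraries, library 2 was the highest in 4 of 5 neutrophil, 3 of 3 fibroblast and 2 of 8 myeloid markers, against 352 of all 1072 genes. Library 2 was the lowest in 4 of the 8 myeloid markers and 39 of 55 type I interferon genes, against 446 of all 1072 genes. The part of other cells in the differences between tissues was not tested.

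The 4 genes that were tested and not called were Map3k8, Plcb2, Prickle1 and Prkcb. Map3k8, a kinase of the ERK pathway, had 12.85, 2.12 and 12.45 FPKM in spinal cord, against 2.21, 3.23 and 4.08 FPKM in spleen (limma adjusted p = 0.0658). Prkcb had 4.25, 7.75 and 1.84 FPKM in spinal cord, against 2.1, 1.71 and 2.67 FPKM in spleen (limma adjusted p = 0.102). In all 4 genes the groups overlapped, as at least 1 spinal cord library lay below the highest spleen library.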

How the data were processed

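Bulk RNA sequencing of Treg cells was read from 1 deposited table of FPKM values, made from mRNA enriched on oligo(dT) beads per the labels' protocols. The submitters' processing notes name Bowtie2, RSEM 1.3.1, DESeq2 1.4.5 and GRCm38.p6 without saying what each did, and no source used here says whether counting used strand. The deposited log2 fold changes and Q values (adjusted p-values) of the authors were read only to see how the table's genes had been selected. The table holds FPKM without counts, so depth is unknown and no counting interval is given. The microglia table was not used. Coordinates and promoter windows came from RefSeq (GRCm38.p6), where 1282 of 1284 genes matched, and exon overlaps from GENCODE vM21.

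Log2(FPKM + 1) was fitted with limma 3.58.1 (R 4.3.3) with a trend on mean level and no covariate, for genes with a mean of at least 1 FPKM, and p-values were adjusted by Benjamini-Hochberg over all 1072. The procedure was run on simulated data in which most genes were unchanged. Those data had neither the preselection nor the unequal sums of this table, so the run cannot show how these affect the calls. A change given as a number of fold is a ratio of mean FPKM. Log2 changes carry the added 1, so they are too small for low genes. Alternatives were pseudocounts of 0.1 and 5, no filter, a mean of at least 5 FPKM, equal totals, quantile normalisation, median-ratio scaling, no trend, a replicate block and leaving out each library.

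The comparison and the gene lists were chosen with earlier results of these data known, and some list patterns were narrowed to drop genes that share only a name stem. The text names, by a set rule, the 15 top rises and falls in log2 fold change and the 10 in mean FPKM among called genes without overlap and at least 5 FPKM in the higher group, up to 6 members of each list by size, every marker and Treg identity gene with a row, and genes not called. Other genes named were chosen after their values were seen: Actn1, Aen, Cad, Ccr6, Cox17, Ctps, Cyp1b1, Dhx58, Gpr15, Icos, Id3, Ifit3, Ifnar1, Il10, Il17a, Il6ra, Irf9, Mrpl38, Ms4a6b, Ncl, Ndufa1, Ndufa3, Nlrc5, Nr4a2, Nr4a3, Oas3, Pde1a, Phf11b, Pigr, Polr1a, Polr1b, Rhog, Rpl37, Rtp4, S100a10, Sp140, Stat2, Thy1, Timm21, Tiparp, Trpv2, Wdr77 and Zbp1. Some list members are not reported here by name.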

Additional observations from a re-analysis of the deposited data

How the results depend on the processing

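The count of genes called lower in spinal cord stayed within 1.5 times of 414 under every alternative run, and that of genes called higher under all but 2. Against 654 genes higher with the values as deposited, 266 were higher with equal totals and 329 with median-ratio scaling. Of the calls, 61.2% were higher as deposited, 39.1% with equal totals, 54.3% with quantile normalisation and 44.3% with median-ratio scaling. Leaving out 1 library gave 620 to 631 higher and 408 to 412 lower. With equal totals the counts of higher genes were 2 for T cell receptor signalling, 1 for cytokines, 4 for cytokine receptors, 6 for the interferon gamma list, 1 for cytokine signalling inhibitors, 9 for actin, 3 for the GIMAP list, 6 for G protein-coupled receptors, 1 for ion channels, 1 for solute carriers, 0 for ribosomal proteins, 4 for amino acid and nucleotide synthesis, 2 for glycolysis and hypoxia, 0 for mitochondria, 2 for sterol and lipid, 0 for the lysosome, 6 for oxidative stress and 10 for ubiquitin ligases. With quantile normalisation they were 1 for Treg identity, 14 for the interferon gamma list, 3 for cytokine signalling inhibitors, 6 for adhesion, 1 for ribosomal proteins and 0 for mitochondria. By their construction these scalings lower the spinal cord libraries against the spleen libraries.

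With equal totals the log2 fold change lay below 0 for Actn1 (-0.01), B2m (-0.06), Ms4a6b (-0.01), Ndufa1 (-0.05), Nlrc5 (-0.02), Nr4a3 (-0.0009), Plcb2 (-0.17), Prickle1 (-0.01), Rhog (-0.03), Rpl37 (-0.09), Rpl41 (-0.0022), S100a10 (-0.02), Socs1 (-0.04), Sp140 (-0.05), Thy1 (-0.02) and Trpv2 (-0.06). With quantile normalisation the log2 fold change lay below 0 for B2m (-0.33), H2-D1 (-0.19), Rpl36 (-0.13), Rpl41 (-0.25), Rps27 (-0.14) and Tmsb4x (-0.21). With median-ratio scaling the log2 fold change lay below 0 for Plcb2 (-0.04). No source used here says whether same-numbered libraries of the tissues share an animal. Same-numbered libraries correlated at -0.003, -0.041 and -0.053 in their deviations from the group means, and libraries of unlike number at -0.014 to 0.056. No shared deviation was thus seen, but with 3 libraries per group these values cannot decide whether animals were shared. With the number as a replicate block, 650 genes were higher and 414 lower. Depth, and so the counting error of low FPKM values, is unknown.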

Other observations

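Lipid and protein quality genes were measured beside the groups above. Over all genes 61.0% were higher (24.8% with equal totals) and 38.6% lower in both. Of 12 sterol, fatty acid and lipid genes tested, 9 were higher in spinal cord (2 with equal totals) and 3 lower (3 with equal totals). Plin2, which coats lipid droplets, had 180, 202 and 198 FPKM in spinal cord, against 47.9, 40.9 and 63.3 FPKM in spleen, and Dgat1, which makes the triglycerides they store, was 3.97-fold higher. Fasn, the fatty acid synthase, had 18.5, 16.8 and 15.5 FPKM in spinal cord, against 40.6, 51.3 and 47.7 FPKM in spleen. The storage genes were thus higher in each spinal cord library and the synthase lower, and groups did not overlap in 97.6% of all genes. Of 8 lysosome genes tested, 8 were higher as deposited, and with equal totals limma called 0, with 1 at an unadjusted p under 0.05, against 8 with quantile normalisation. Of 7 genes of protein folding tested, 3 were higher (2 with equal totals) and 4 lower (4 with equal totals). Bag2, a co-chaperone, had 1.77, 1.37 and 2.98 FPKM in spinal cord, against 22.1, 12.5 and 17.9 FPKM in spleen. Edem2, which marks misfolded proteins for removal, averaged 266 ± 9.34 FPKM in spinal cord and 81.7 ± 0.526 FPKM in spleen (SD, n = 3 each).

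Of 6 genes of glycolysis and the hypoxia response tested, 4 were higher (2 with equal totals) and 2 lower (2 with equal totals). For this and the next lists the shares over all genes are 61.0% higher (24.8% with equal totals) and 38.6% lower in both. Ndrg1, a hypoxia-induced gene, had 32.8, 20.9 and 35.8 FPKM in spinal cord, against 3.83, 4.17 and 3.19 FPKM in spleen. Of 23 ubiquitin ligase and TRIM genes tested, 18 were higher (10 with equal totals) and 5 lower (5 with equal totals). Trim30a, one of a family of close copies, had 73.1, 60.2 and 65.8 FPKM in spinal cord, against 8.92, 7.7 and 9.7 FPKM in spleen. Of 7 ion channel and calcium genes tested, 7 were higher as deposited and 1 with equal totals, where Trpv2 lay below 0. That 1 was Cacna1s, a calcium channel subunit, with 3.69, 3 and 3.21 FPKM in spinal cord, against 0.27, 0 and 0.15 FPKM in spleen.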
